A study of Homo sapiens with 32 samples.

Results

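Peaks of N6-methyladenosine (m6A) were examined at 3 loci of PANC-1 cells, an established human pancreatic ductal adenocarcinoma line. The loci, in hg19, were NR2F1 with its divergent antisense RNA at chr5:92745000-92935000, NTSR1 at chr20:61340189-61394123 and ZDHHC20 at chr13:21946700-22033508. They were chosen because they hold some of the strongest peaks called in the knockouts and not in control, so peak strength and absence from control are given here as a description and were not tested. Of the 424904 lines of the 3 deposited peak lists, 238 overlapped the loci: 91 at NR2F1, 100 at NTSR1 and 47 at ZDHHC20. A line is 1 peak called in 1 library. The groups were PANC-1 cells labelled KO CFL1 (CFL1 encodes the actin filament-severing protein cofilin 1), PANC-1 cells labelled KO METTL3 (METTL3 is the enzyme that transfers the methyl group in the m6A writer complex) and PANC-1 cells labelled Control. Each group had 2 antibody-selected samples and 2 inputs of total RNA. The labels do not say how a knockout was made or whether it was a single clone or a pool. The peak names of the knockout libraries carry the letters si, which the labels do not explain, and the groups are called knockouts here as the labels have them. Whether either protein was missing cannot be read from the lists. The peak names separate 2 libraries per list, called here CFL1 knockout 3 and 5, METTL3 knockout 3 and 5, and control 1 and 2. Whole libraries held 63859 to 72728 lines in the knockouts and 77603 and 79467 lines in control. Read depth is unknown, and −log10 q may vary with it. Input RNA levels were not examined, so a peak called in a single group may reflect more RNA or more methylation, which cannot be told apart.

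NR2F1 (COUP-TFI) is an orphan nuclear receptor, a transcription factor of development that has been studied in tumour cell dormancy, and NR2F1-AS1 is a long noncoding RNA transcribed from the opposite strand. NTSR1 is the Gq-coupled receptor of the peptide neurotensin and is found in several gastrointestinal cancers. ZDHHC20 is a palmitoyltransferase of the DHHC family whose substrates include the epidermal growth factor receptor. The mark m6A is set on RNA while it is being made, is typical of long internal exons and of the region around stop codons, and is bound by reader proteins that alter RNA processing and decay. The lists carry no strand, so RNA from a gene and from an overlapping gene cannot be told apart. In RefSeq (GRCh38.p14), NR2F1 and NR2F1-AS1 overlap at their starts on opposite strands, NR2F1-AS1 also overlaps the long noncoding RNA LOC124901026, NTSR1 contains NTSR1-AS1, and ZDHHC20 overlaps the transcribed pseudogene MIPEPP3 and LOC124903130. An hg19 annotation was not used, so sites were not assigned to exons, introns or untranslated regions.

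The starts of NTSR1 and ZDHHC20 differed in whether peaks reached them, so the 250 bases before each start are shown, from RefSeq (GRCh38.p14), 5′ to 3′ on the strand of the gene. Capitals mark GGACT, a form of the m6A consensus, or its reverse complement AGTCC, both of which were searched and do not overlap each other here.
NTSR1, chr20:62708586-62708835, plus strand: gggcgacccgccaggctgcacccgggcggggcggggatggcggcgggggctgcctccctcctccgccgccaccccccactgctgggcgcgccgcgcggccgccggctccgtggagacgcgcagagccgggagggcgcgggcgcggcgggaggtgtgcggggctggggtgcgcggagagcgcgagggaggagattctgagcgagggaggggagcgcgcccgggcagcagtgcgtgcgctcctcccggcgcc
ZDHHC20, chr13:21459304-21459553, minus strand: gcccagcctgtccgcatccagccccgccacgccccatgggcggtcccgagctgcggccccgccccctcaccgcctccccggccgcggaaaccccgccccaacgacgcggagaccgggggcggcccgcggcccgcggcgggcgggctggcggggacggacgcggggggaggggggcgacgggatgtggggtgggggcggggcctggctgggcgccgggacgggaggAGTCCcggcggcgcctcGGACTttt
Both windows are rich in G and C, at 82% for NTSR1 and 82.4% for ZDHHC20. The NTSR1 window holds neither form, and the ZDHHC20 window holds each of them 1 time. Of 35116 RefSeq windows of this length, 37.7% hold GGACT or AGTCC. These bases lie before the start, outside the annotated RNA of each gene, so the counts of these forms say nothing about its m6A peaks. In hg19, taking the low end of the NTSR1 locus as its start, a line of every library reached into the 250 bases before it. The line covered 250 and 142 of these bases in CFL1 knockout 3 and 5, 250 in both METTL3 knockout libraries, and 23 and 78 in control 1 and 2. At ZDHHC20, taking the high end of the locus as its start, no library had a line there. The nearest one was 25302 and 28657 bp away in CFL1 knockout 3 and 5, 41737 and 25124 bp in METTL3 knockout 3 and 5, and 16579 and 16631 bp in control 1 and 2.

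Most knockout lines at the loci overlapped a control line. Of the 83 CFL1 knockout lines, 28 (33.7%) overlapped none by at least 1 bp, while over the whole CFL1 knockout list the share was 53.2%. Of the 69 METTL3 knockout lines, 17 (24.6%) overlapped none, while over the whole METTL3 knockout list the share was 49.3%. At these loci the knockout-only lines were thus a minority. Among lines with a −log10 q of at least 20, 11 of 44 (25%) in the CFL1 knockout and 7 of 42 (16.7%) in the METTL3 knockout had no control line. Over the whole lists the shares of such lines were 23.2% for the CFL1 knockout and 20.6% for the METTL3 knockout. At this strength the CFL1 knockout share at the loci was thus slightly above its whole list. The lines include the strong knockout-only peaks for which the loci were chosen, so nothing is drawn from this difference. By locus, NTSR1 had the highest share in the CFL1 knockout, 18 of 41 lines (43.9%), and NR2F1 (7 of 30) and ZDHHC20 (3 of 12) had 23.3% and 25%. In the METTL3 knockout the shares were 8 of 31 (25.8%) at NR2F1, 7 of 27 (25.9%) at NTSR1 and 2 of 11 (18.2%) at ZDHHC20. The share at ZDHHC20 rests on control 1: without it, 50% of the CFL1 knockout lines and 36.4% of the METTL3 knockout lines there had no control line. At NR2F1 the CFL1 knockout share was 15.4% in CFL1 knockout 3 alone and 29.4% in CFL1 knockout 5 alone.

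**Figure D1:**
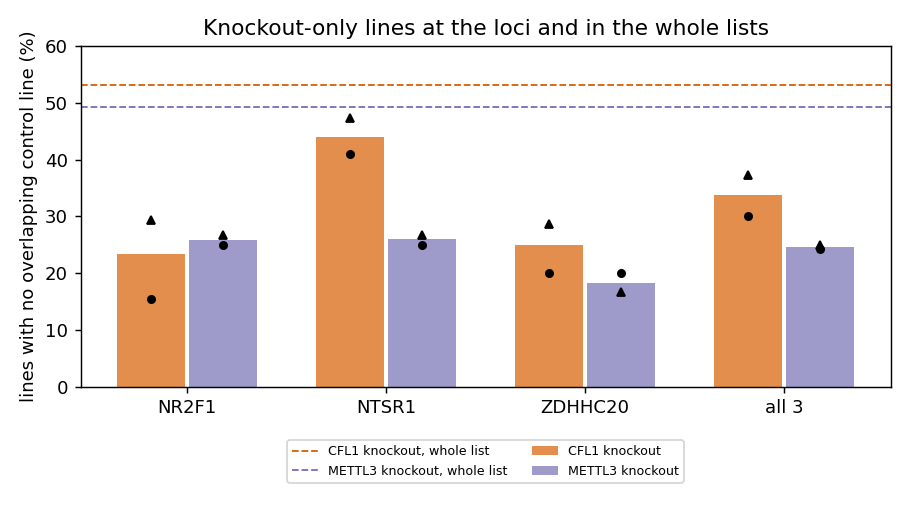
Bars give the percentage of knockout lines with no overlapping control line at each locus and at all 3, circles and triangles give libraries 3 and 5 alone, and dashed lines give the whole lists. All bars lie below the dashed line of their knockout, the highest being 43.9% for the CFL1 knockout at NTSR1.

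Lines that overlapped each other in any library were joined into sites, which gave 63 sites. Of these, 19 had lines in a knockout and none in control, 27 were shared and 17 had lines in control alone. Over the genome, 45.6% of sites had lines in a knockout and none in control, and 32.6% in control and no knockout. The 3 loci differed in this make-up. NR2F1 had 7 knockout-only, 11 shared and 3 control-only sites, NTSR1 had 10, 12 and 2, and ZDHHC20 had 2, 4 and 12, in the same order. Knockout-only sites called in all 4 knockout libraries numbered 4, namely 1 at NR2F1, 2 at NTSR1 and 1 at ZDHHC20, or 6.35% of the sites, where the genome had 3.63%. The loci were chosen for strong knockout-only peaks, which are among these sites, so nothing is drawn from this difference. The other 15 sites of the knockouts alone came from 1 to 3 libraries and reached a −log10 q of 5.59 to 91.9. Of the 19, 8 had lines in both knockouts, 9 in the CFL1 knockout alone and 2 in the METTL3 knockout alone. Over the genome, 24.1% of knockout-only sites had lines in both knockouts, 44.1% in the CFL1 knockout alone and 31.8% in the METTL3 knockout alone.

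**Figure D2:**
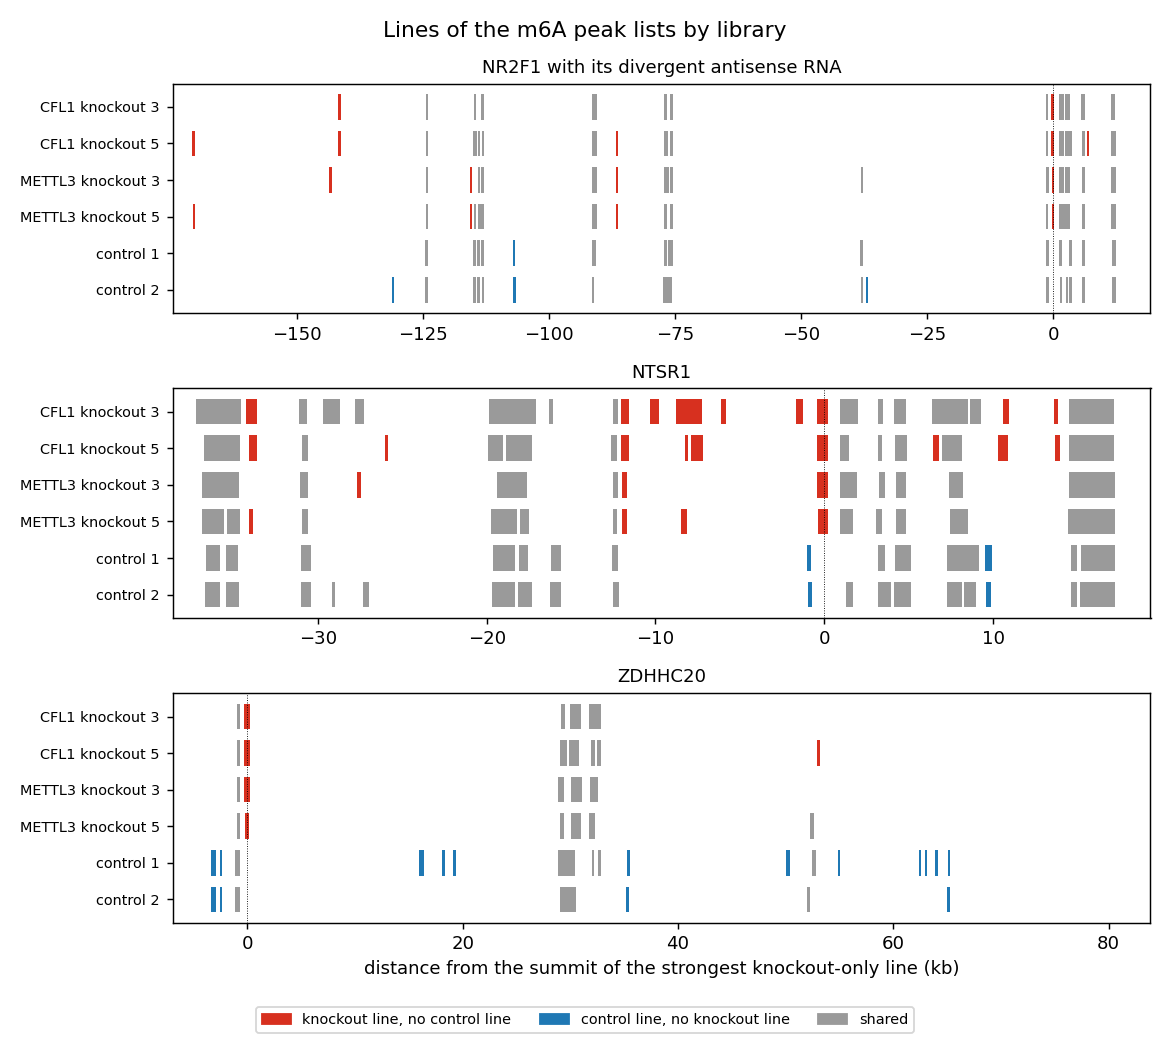
Each row is a library and each block a line of the peak list, placed by its distance in kb from the summit of the strongest knockout-only line of the locus; very short lines are drawn slightly wider. Red blocks have no control line, blue blocks no knockout line and grey blocks are shared; ZDHHC20 shows most of its blue blocks in control 1.

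At NR2F1 the strongest site, by the highest −log10 q of any library, had a line in every knockout library and none in control. It spanned chr5:92917263-92917951, close to the high end of the locus (17.0 kb from it). Its −log10 q was 788 and 779 in CFL1 knockout 3 and 5, with 556 and 506 in METTL3 knockout 3 and 5. These lines ranked 7 of 72728 and 6 of 66295 in the CFL1 knockout libraries, and 40 of 63859 and 67 of 64952 in the METTL3 knockout libraries. The fold enrichment was 18.5 and 23.3 in the CFL1 knockout and 25.4 and 23.9 in the METTL3 knockout. Both CFL1 knockout libraries were above both METTL3 knockout libraries in −log10 q and below them in fold. The 4 summits lay within 13 bp of each other, from 92917713 to 92917726.

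Control lines stood on both sides of this site of the NR2F1 locus without reaching it, with gaps of 723 bp and 981 bp. The site on the low side, chr5:92916191-92916564, was called in all 6 libraries and was weak in control. Its −log10 q was 23.0 and 25.5 in CFL1 knockout 3 and 5, 12.5 and 3.36 in METTL3 knockout 3 and 5, and 2.77 and 3.70 in control 1 and 2. METTL3 knockout 5 overlapped the control range there. On the high side the site chr5:92918835-92921384 had a −log10 q of 198 and 156 in CFL1 knockout 3 and 5, 124 and 77.5 in METTL3 knockout 3 and 5, and 12.1 and 23.4 in control 1 and 2. The knockout lines also covered more of this site, 1894 and 2171 bp in CFL1 knockout 3 and 5 and 2070 and 2236 bp in METTL3 knockout 3 and 5. Control 1 and 2 covered 742 and 1013 bp. METTL3 knockout 5 had a single line, from 92918861 to 92921096. The other knockout libraries had separate lines, as control 1 and control 2 did. The site nearest the high end of the locus, chr5:92929108-92930241, was shared and strong in every library. Its −log10 q was 382 and 500 in CFL1 knockout 3 and 5, 529.6 and 690.2 in METTL3 knockout 3 and 5, and 115 and 168 in control 1 and 2. In METTL3 knockout 5 it exceeded the strongest knockout-only site, which had 506 there.

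**Figure D3:**
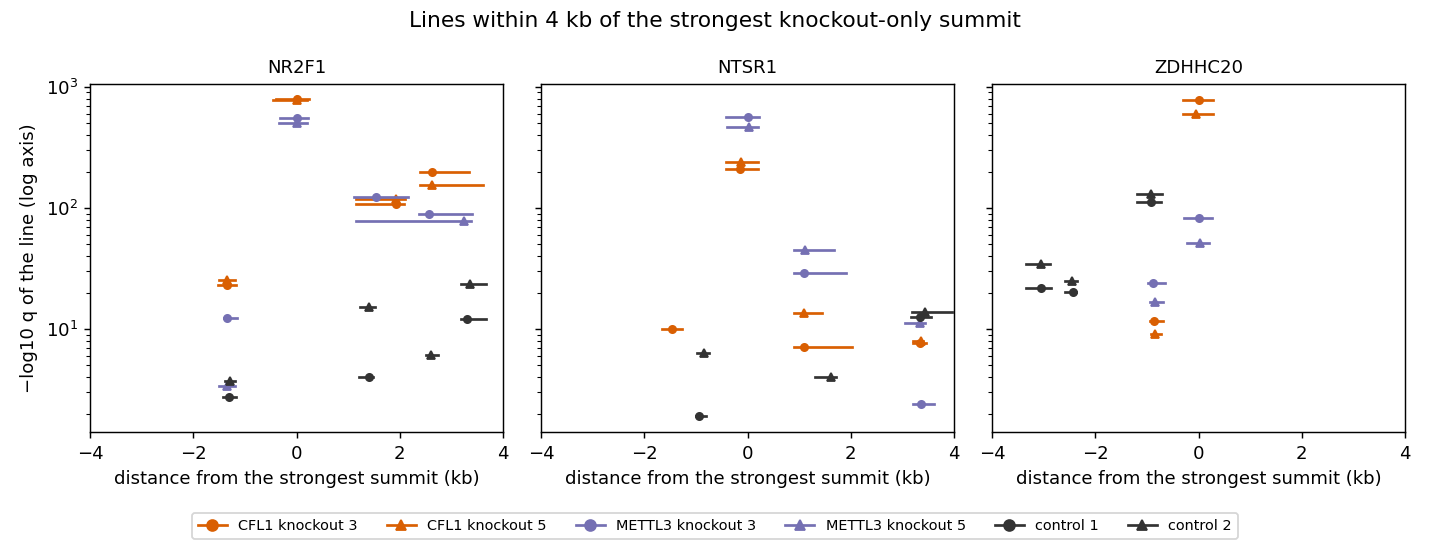
Horizontal segments span the lines within 4 kb of the strongest knockout-only summit of each locus, at the height of their −log10 q (log axis), with the summit marked; colours give the group and marker shapes the library. At NR2F1 and NTSR1 the central lines stand between weak control lines, and at ZDHHC20 the nearest control lines, at 111 and 130, lie above the METTL3 knockout lines of the centre, at 82.2 and 51.4.

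Farther toward the low end of the locus, the direction in which NR2F1-AS1 extends in RefSeq, shared sites carried the strongest lines. Without an hg19 annotation, sites of the locus were not placed in exons or introns of NR2F1 or NR2F1-AS1. In RefSeq (GRCh38.p14), NR2F1-AS1 runs from 93409356 to 93585589 and NR2F1 from 93583222 to 93594611. If both keep these relative positions and lie wholly within the locus, the strongest knockout-only site ends before the start of NR2F1. It then lies within the span of NR2F1-AS1, though the strand of its RNA is unknown. The site chr5:92840338-92842277 had a −log10 q of 217 and 199.6 in CFL1 knockout 3 and 5, 215 and 224 in METTL3 knockout 3 and 5, and 125 and 136 in control 1 and 2. At chr5:92826116-92827220 the values were 20.1 and 104 in CFL1 knockout 3 and 5, 54.6 and 140.2 in METTL3 knockout 3 and 5, and 18.2 and 2.45 in control 1 and 2, so the libraries of each group differed several-fold. The other named knockout-only sites of the locus were weak. The site at 92775876 to 92776095 was called in the CFL1 knockout libraries alone, with a −log10 q of 15.997 and 13.3, and that at 92801933 to 92802183 in the METTL3 knockout libraries alone, with 17.5 and 12.2. The site at 92830920 to 92831161 was called in CFL1 knockout 5 (2.79) and in METTL3 knockout 3 and 5 (14.3 and 14.7). CFL1 knockout 5 alone had the site at 92924385 to 92924584 (18.6), and CFL1 knockout 5 and METTL3 knockout 5 the site at 92746853 to 92747300 (5.93 and 9.85). Control alone had weak lines at 92786455 to 92786687, with a −log10 q of 5.30 in control 2, and at 92810533 to 92810820, with 4.30 and 2.998 in control 1 and 2.

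At NTSR1 there were 2 knockout-only sites in all 4 knockout libraries, and they ordered the knockouts in opposite ways. The stronger, chr20:61376367-61377012, lay 36.2 kb from the start of the gene. Its −log10 q was 209.5 and 239 in CFL1 knockout 3 and 5, with 565 and 466 in METTL3 knockout 3 and 5, with folds of 9.01 and 8.74 in the CFL1 knockout and 18.5 and 13.5 in the METTL3 knockout. Both METTL3 knockout libraries lay above both CFL1 knockout libraries on either measure. The lines ranked 984 and 1170 in CFL1 knockout 3 and 5, with 33 and 106 in METTL3 knockout 3 and 5. Their ends agreed closely, with starts within 26 bp and ends within 9 bp of each other, while the summits lay at 61376648 and 61376658 in the CFL1 knockout libraries and at 61376794 and 61376824 in the METTL3 knockout libraries. The nearest control lines, at 61375796 to 61376052, were 314 bp away and weak, with a −log10 q of 1.91 in control 1 and 6.31 in control 2. No knockout library had a line over them.

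The other such site, chr20:61364775-61365198, lay 24.6 kb from the start of NTSR1. Its −log10 q was 219.6 and 171 in CFL1 knockout 3 and 5, with 18.0 and 48.7 in METTL3 knockout 3 and 5. Both CFL1 knockout libraries lay above both METTL3 knockout libraries here. A control line ended 117 bp below it, at a site called in all 6 libraries, chr20:61364176-61364657, whose −log10 q overlapped between the groups: 10.1 and 17.8 in CFL1 knockout 3 and 5, 27.3 and 8.78 in METTL3 knockout 3 and 5, and 24.9 and 3.47 in control 1 and 2. With 2 libraries against 2, an exact permutation test cannot give a two-sided p under 0.333, so the differences between the knockouts were not tested.

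Several weaker NTSR1 sites had their lines mostly in the CFL1 knockout. At chr20:61342553-61343163 the −log10 q was 91.9 and 33.2 in CFL1 knockout 3 and 5 and 3.79 in METTL3 knockout 5, with no line in METTL3 knockout 3. At chr20:61368002-61369629 it was 41.2 and 11.8 in CFL1 knockout 3 and 5 and 2.93 in METTL3 knockout 5. The CFL1 knockout also had lines at 61390429 to 61390768 (10.02 and 6.35) and, in CFL1 knockout 3 alone, at 61375143 to 61375528 (10.1). Of the 10 knockout-only sites of NTSR1, 6 had lines in the CFL1 knockout alone and 0 in the METTL3 knockout alone, beside 44.1% and 31.8% of knockout-only sites over the genome for the CFL1 and the METTL3 knockout. More of the locus was covered by lines in the CFL1 knockout, 19837 and 14387 bp in CFL1 knockout 3 and 5, than in the METTL3 knockout (11279 and 11478 bp in libraries 3 and 5) or control (10994 and 12667 bp in control 1 and 2).

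Both ends of NTSR1 held strong shared sites. At the start, chr20:61339561-61342252, the −log10 q was 59.5 and 72.0 in CFL1 knockout 3 and 5, 175 and 183 in METTL3 knockout 3 and 5, and 234 and 377 in control 1 and 2. The strongest lines there were below control in all 4 knockout libraries. At the far end, chr20:61391263-61394043, it was 131 and 150.3 in CFL1 knockout 3 and 5, 220.1 and 245 in METTL3 knockout 3 and 5, and 228 and 295 in control 1 and 2. Another strong shared site was chr20:61383177-61386064, with 54.5 and 75.3 in CFL1 knockout 3 and 5, 45.1 and 44.8 in METTL3 knockout 3 and 5, and 111 and 91.5 in control 1 and 2. At chr20:61356881-61359699 it was 26.9 and 63.8 in CFL1 knockout 3 and 5, 11.98 and 18.4 in METTL3 knockout 3 and 5, and 31.7 and 45.3 in control 1 and 2. There the CFL1 knockout overlapped control, and both METTL3 knockout libraries lay below all the others. Control alone had a site at 61386322 to 61386707, with a −log10 q of 27.2 in control 1 and 3.71 in control 2.

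**Figure D4:**
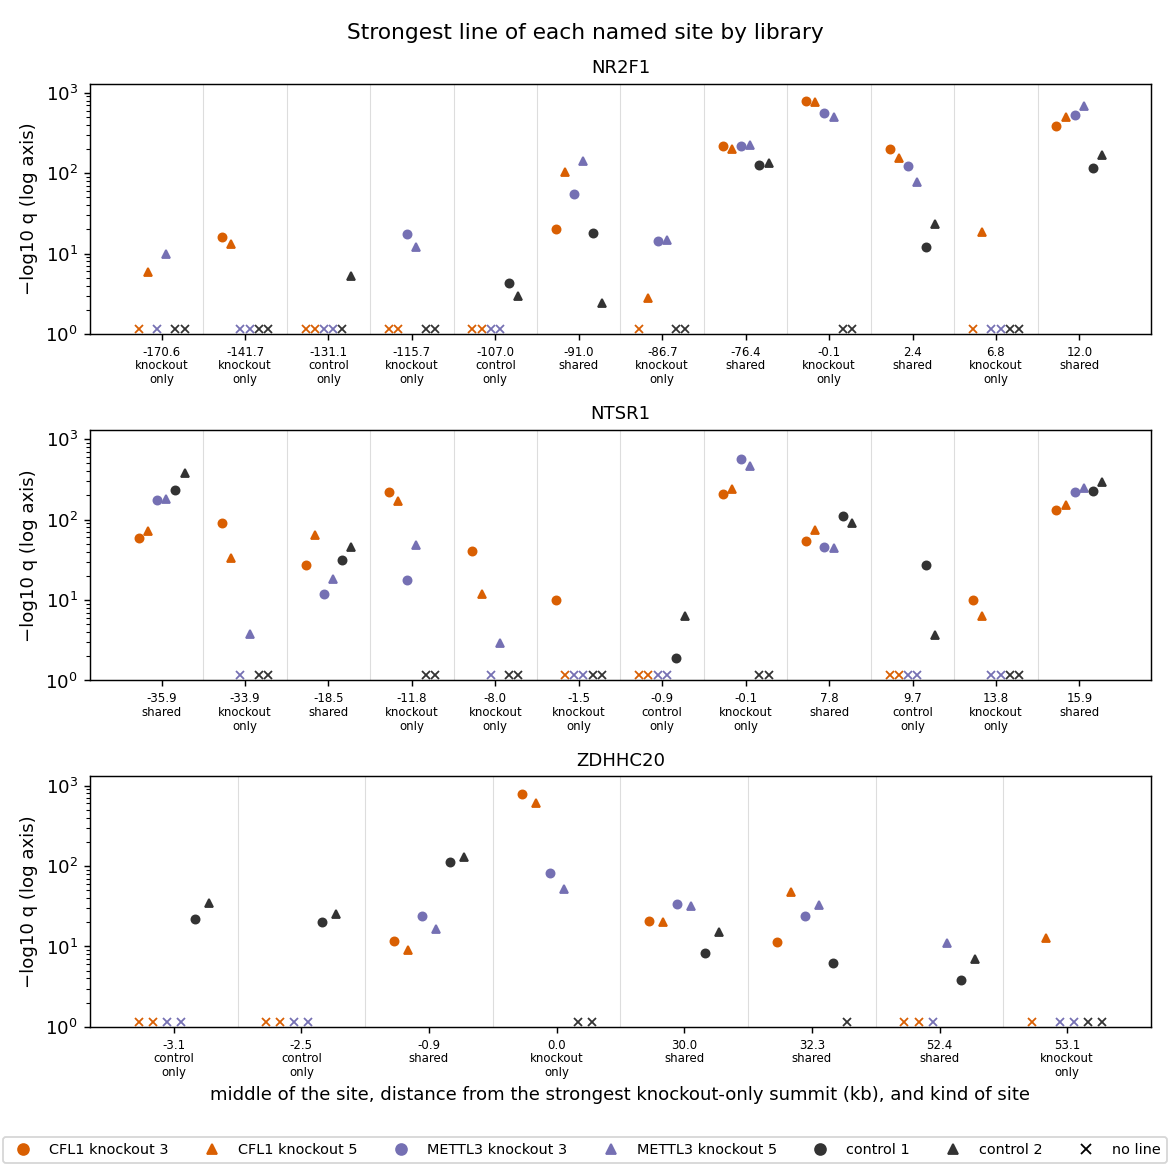
Points give the −log10 q (log axis) of the strongest line of each named site in each library, and crosses mark libraries with no line; sites run by position and are labelled by their distance in kb from the strongest knockout-only summit. The sites at 0 or -0.1 kb have 4 knockout points and 2 control crosses, with the CFL1 knockout highest at NR2F1 and ZDHHC20 and the METTL3 knockout highest at NTSR1.

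At ZDHHC20 the strongest site, chr13:21951331-21951919, lay 4.63 kb from the low end of the locus, which is the end of this minus-strand gene. Its −log10 q was 781 and 601 in CFL1 knockout 3 and 5, with 82.2 and 51.4 in METTL3 knockout 3 and 5. The folds were 35.3 and 41.1 in the CFL1 knockout and 12.4 and 11.4 in the METTL3 knockout. The lines ranked 8 and 26 in CFL1 knockout 3 and 5, but 8569 and 11845 in METTL3 knockout 3 and 5. The METTL3 knockout lines thus shared the place of the CFL1 knockout lines and not their strength. Starts agreed within 68 bp and summits within 61 bp.

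The neighbouring ZDHHC20 sites were stronger in control. The site chr13:21950443-21950977, whose nearest control summit was 886 to 947 bp from the knockout summits of the strongest site, had a −log10 q of 11.7 and 9.06 in CFL1 knockout 3 and 5, 24.0 and 16.7 in METTL3 knockout 3 and 5, and 111 and 130 in control 1 and 2. Toward the end of the gene, control 1 and 2 alone had lines at 21948288 to 21948759 (21.9 and 34.7) and at 21949048 to 21949263 (20.2 and 25.1). So within 4 kb the strongest line of the knockouts and the strongest line of control lay at different places. Of the 24 control lines of the locus, 18 (75%) had no CFL1 knockout line and 17 (70.8%) no METTL3 knockout line, beside 57.8% and 57.7% of control lines over the whole list. Of the 12 control-only sites, 8 were called in control 1 alone, and control 1 had 17 lines at the locus where control 2 had 7. The other named sites were weak: chr13:21980497-21982712 had 21.0 and 20.3 in CFL1 knockout 3 and 5, 34.0 and 32.1 in METTL3 knockout 3 and 5, and 8.21 and 15.3 in control 1 and 2. At chr13:21983372-21984494 the values were 11.3 and 47.8 in CFL1 knockout 3 and 5, 23.6 and 33.1 in METTL3 knockout 3 and 5, and 6.21 in control 1, with no line in control 2. METTL3 knockout 5 (11.1) shared a site with control 1 (3.81) and control 2 (6.95) at 22003628 to 22004446, and CFL1 knockout 5 alone had 22004525 to 22004852 (12.7).

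Sites called in all 6 libraries show how the lines beside the knockout-only sites compared with control. There were 8 at NR2F1, 8 at NTSR1 and 2 at ZDHHC20. This leaves out shared sites that some library lacked, so NR2F1 had 11 shared sites but 8 counted here. Among those left out, chr5:92879379-92879880 was strongest in control, with a −log10 q of 47.4 and 67.8 in control 1 and 2. METTL3 knockout 3 had 7.06 there, and no other knockout library had a line. At NR2F1, both CFL1 knockout libraries exceeded both control libraries in −log10 q at 8 of the 8 sites, beside 35.3% of such sites over the genome, and in fold of the strongest line at 7 of 8, beside 33.8%. Both METTL3 knockout libraries did so at 6 of 8 in −log10 q, beside 42.8%, and at 4 of 8 in fold, beside 43.3%. At NTSR1 more sites lay below control than above it, by little for the METTL3 knockout in fold. Both CFL1 knockout libraries were below both control libraries in −log10 q at 5 of 8 sites, beside 31.5% over the genome, and in fold at 4 of 8, beside 26.6%. Both METTL3 knockout libraries were below control in −log10 q at 5 of 8 sites, beside 27.8%, and in fold at 2 of 8, beside 20%. Sites above control there numbered 1 in −log10 q and 0 in fold for the CFL1 knockout. For the METTL3 knockout they numbered 0 in −log10 q and 1 in fold. These comparisons share the control libraries, sites of a locus share their RNA, the strongest lines of a site can lie at different places within it, and the loci were chosen from the same contrast, so nothing beyond the counts is drawn from them. At the NR2F1 site chr5:92929108-92930241 the folds were 7.01 and 8.84 in CFL1 knockout 3 and 5, 9.10 and 16.1 in METTL3 knockout 3 and 5, and 4.17 and 4.9997 in control 1 and 2. At the start of NTSR1 they were 2.40 and 2.62 in CFL1 knockout 3 and 5, 6.99 and 8.51 in METTL3 knockout 3 and 5, and 9.73 and 14.2 in control 1 and 2. At the NR2F1 site, which had 1 line per library, both knockouts lay above control. The strongest lines at the start of NTSR1 lay at different places. Both control libraries had a line there with its summit near 61340673 or 61340790, at folds of 7.09 and 7.33 in control 1 and 2, and their strongest line farther into the gene, at 61341650 and 61341657. METTL3 knockout 5 also had a line at this second place, with a fold of 10.8, above control 1 and below control 2. The METTL3 knockout and control folds thus overlapped over the lines of this site, while both CFL1 knockout libraries, with 1 wide line each, were below every other line of it.

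**Figure D5:**
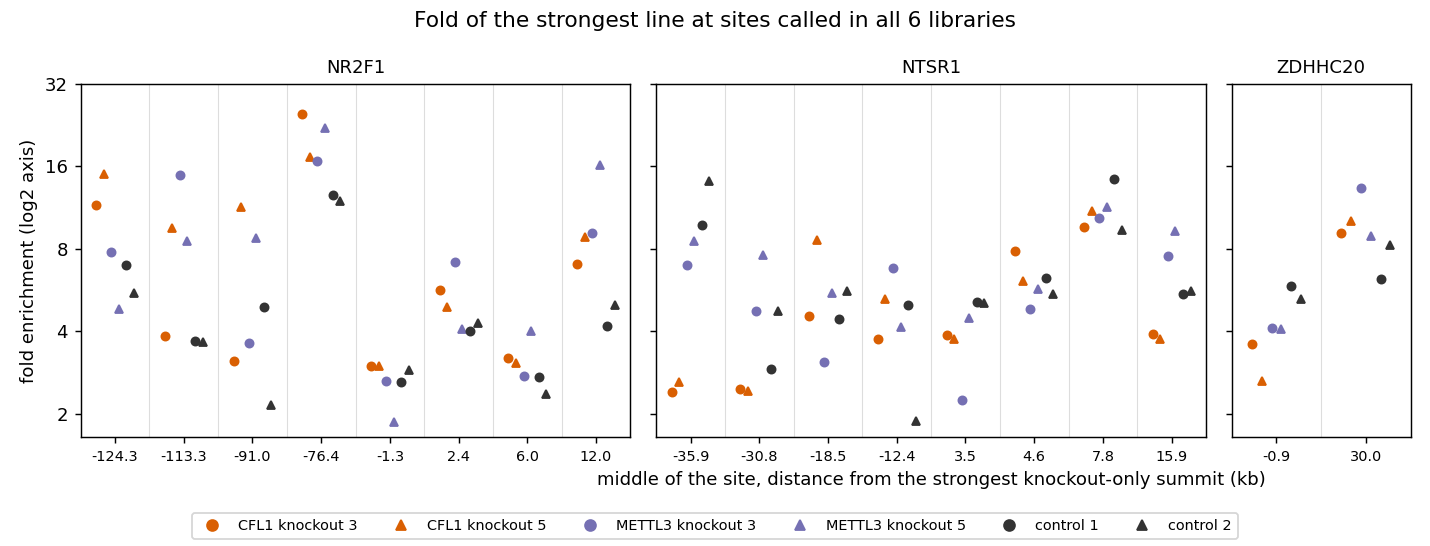
Points give the fold enrichment (log2 axis) of the strongest line in each library at the 18 sites called in all 6 libraries, by distance in kb from the strongest knockout-only summit. At NR2F1 most knockout points lie above the control points, and at the start of NTSR1 (-35.9 kb) the CFL1 knockout points, at 2.40 and 2.62, lie far below those of control, at 9.73 and 14.2.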

How the data were processed

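Per the submitters' processing notes, reads were aligned with STAR to hg19 and MACS2 and bedtools were used. Their versions and settings, and what served as background for MACS2, were not stated in the labels or headers. The authors deposited, per peak, the interval, the summit, a fold enrichment (a ratio), −log10 p and −log10 q, and a score. The score and −log10 p were the 2 columns not used. Of 32 samples, 12 stand behind the lists, and 20 were not analysed here.

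Lines of the loci were compared with control at an overlap of at least 1 bp (bedtools 2.31.1), keeping, where a list repeated an interval, only its highest −log10 q. Sites are chains of overlapping lines of all libraries, and a site's value in a library is that of its strongest line. Sites named are the 6 strongest knockout-only, 4 shared and 2 control-only sites per locus, plus a few others chosen after their values were seen. Ranks are within a library, by −log10 q unless fold is named. The overlap steps were tested on simulated data. The members and lists were chosen with earlier results of these data known. The labels name no separate cultures behind the 2 libraries of each group, so spread between them may be technical. Related genes were not examined, since an hg19 annotation was not used.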

Additional observations from a re-analysis of the deposited data

Results flagged for a closer look

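At 2 sites of NTSR1 called in all 6 libraries, on 1 measure of each, both libraries of one knockout lay above both control libraries and both libraries of the other knockout below them; these differences were not tested. At chr20:61391263-61394043 the fold of the strongest line was 3.92 and 3.76 in CFL1 knockout 3 and 5, 7.51 and 9.30 in METTL3 knockout 3 and 5, and 5.49 and 5.62 in control 1 and 2, so the CFL1 knockout mean minus the METTL3 knockout mean was -4.57. By −log10 q the METTL3 knockout there, at 220.1 and 245, overlapped control, at 228 and 295. The CFL1 knockout summits, at 61391584 and 61391581, also lay by separate, weaker control lines, whose folds were 1.81 and 2.27 in control 1 and 2. METTL3 knockout 3 had its summit at 61392748, near the strongest control summits at 61392702, but METTL3 knockout 5 had its own at 61393499. At chr20:61380940-61381940 the −log10 q was 32.1 and 27.2 in CFL1 knockout 3 and 5, 16.3 and 19.4 in METTL3 knockout 3 and 5, and 24.9 and 24.7 in control 1 and 2, and the CFL1 knockout mean exceeded the METTL3 knockout mean by 11.8. By fold the groups overlapped at this site, with 7.85 and 6.10 in CFL1 knockout 3 and 5, 4.81 and 5.68 in METTL3 knockout 3 and 5, and 6.26 and 5.47 in control 1 and 2. Summits differed in place here too. They lay at 61381082 in CFL1 knockout 3 and at 61381193 and 61381123 in control 1 and 2. In CFL1 knockout 5 the summit was at 61381539, and in METTL3 knockout 3 and 5 at 61381522 and 61381481.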

How the results depend on the processing

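No paired analysis was possible because the library numbers in the peak names of the knockouts (3 and 5) cannot be matched to the labelled replicates. The share of CFL1 knockout lines at the 3 loci with no control line (33.7%) moved by more than the SD between its libraries to 43.4% by the summit, 39.7% at a −log10 q of at least 5, 40.9% at a fold of at least 4 and 28.6% for lines of both libraries. The METTL3 knockout share (24.6%), whose libraries differed little, moved to 27.5% at an overlap of 50% of the shorter peak, 29.0% by the summit, 30.2% at a −log10 q of at least 5, 21.1% at 10 in the list counted, 34.6% at a fold of at least 4, 29.7% with lines within 100 bp merged, 19.7% for lines of both libraries and 24% with loci extended by 10000 bp. With only the knockout lines that reached a −log10 q of 20, a setting chosen after seeing the data, the shares were 25% for CFL1 and 16.7% for METTL3. Without each library in turn the shares ran from 30% to 38.6% and from 24.2% to 27.5%. Of 14 settings of each knockout, the main one included, the share at the loci was below that of the whole list in 13 for CFL1, by 2.90 to 25.7 percentage points, and in 14 for METTL3, by 3.89 to 28.0. The exception was CFL1 with lines that reached 20, at 25% against 23.2%. Single loci did not all follow. The CFL1 share at NTSR1 was above the whole list at 10 in the list counted, 40% against 32.9%. It was also above for lines of both libraries, 42.4% against 37.6%, and at 20, 38.9% against 23.2%. At ZDHHC20, with few lines, the shares at 20 were 40% for CFL1 and 25% for METTL3, against 23.2% and 20.6%. The lines that reached 20 include those for which the loci were chosen. The cause of these movements was not tested. Read depth is unknown, so a line absent from control may lie just under the threshold there.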

Other observations

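Lines were also counted in windows of equal length directly beside the loci. In the window below NR2F1 there were 4 and 7 lines in CFL1 knockout 3 and 5, 7 and 5 in METTL3 knockout 3 and 5, and 0 and 1 in control 1 and 2, while in the window above it the libraries had 4 or 5 lines each. In the window above NTSR1 there were 14 and 13 lines in CFL1 knockout 3 and 5, 8 and 9 in METTL3 knockout 3 and 5, and 5 in each control library. In the window below NTSR1 the counts were 21 and 19 in CFL1 knockout 3 and 5, 21 in each METTL3 knockout library, and 17 and 12 in control 1 and 2. Beside ZDHHC20 all libraries had 0 to 5 lines. These windows were chosen after the data were seen, and the counts were not tested.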
